A study of Mus musculus with 14 samples.

Results

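Tumor-low DP cells are blood cells of a sorted class that the labels name DP, without spelling the letters out, in which melanocyte genes were low. They were chosen by measured values: the CPM (counts scaled to a total of 1000000 per cell) of Pmel, Dct, Tyrp1 and Mlana, 4 pigment-cell genes, summed to less than 5000 in each cell. The rule took 84 of 273 blood DP cells and left 189 tumor-high DP cells, in a series of 648 cells. They were set against all 28 blood cells of the class WBC. The series asked about candidate hybrids of tumor cells and leukocytes in the circulation. Sorting used tumor and host markers, which stay unnamed in the labels. Smart-seq2 then gave 1 library of full-length cDNA for each sorted cell. Both classes came from female C57BL/6J mice aged 6 to 8 weeks with the treatment Tumor, meaning that B16F10 melanoma cells with a fluorescent label, a line of C57BL/6J background, had been injected and no drug was given. A single control sample of 21 WBC, from mice of the same strain, sex and age with the treatment Naive, gave background values without a test.

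The 84 tumor-low DP cells came from 6 samples, with 3 cells in replicate 1, 10 in replicate 2, 2 in replicate 3, 20 in replicate 6, 35 in replicate 7 and 14 in replicate 9. The 28 WBC came from 6 samples, with 3, 4, 9, 2, 4 and 6 cells in replicates 1 to 6. Replicates 1, 2, 3 and 6 held both classes and gave 4 pairs with 35 DP cells and 22 WBC, while the other 49 DP cells had no WBC of their own sample. Those 49 came from replicates 7 and 9, which bear the sample labels P1 and P4. The labels of replicates 1 to 6 begin with C. Nothing in the labels shows that each sample is its own animal. The spread between these samples may therefore be technical. The edgeR p-values of the 4 pairs follow 1 trend of spread over all genes. They do not measure how far the pairs of a single gene agree. A tumor-low DP cell had 0.236 to 49.2 Mcounts (units of 1000000 counts; median 8.07), a WBC 0.35 to 29.5 Mcounts (median 4.04) and a naive WBC 0.283 to 6.0 Mcounts (median 1.05).

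Macrophages and monocytes are phagocytes known for complement C1q genes, lysozyme (Lyz2) and the integrin subunit CD11b (Itgam). Blood normally carries monocytes, neutrophils, lymphocytes and platelets, while C1q-rich macrophages are known from tissues. The resident macrophages of the peritoneal and pleural cavities are known for the transcription factor Gata6, the lipoxygenase Alox15 and the lubricant proteoglycan Prg4, and monocyte-derived macrophages of these cavities for Ccr2, class II histocompatibility (MHC) genes and Retnla.

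Over all samples, most tumor-low DP cells were macrophage-like, and the kinds of macrophage differed from those among the WBC. Clustering of the 112 cells gave 8 clusters, named from marker lists. Macrophage-like clusters held 53 of 84 DP cells (63.1%, exact 95% binomial interval 51.9 to 73.4) and 10 of 28 WBC (35.7%, 18.6 to 55.9). In replicates 1, 2, 3 and 6 it was 1 of 3, 8 of 10, 2 of 2 and 5 of 20 DP cells. The WBC of these replicates had 1 of 3, 2 of 4, 3 of 9 and 1 of 6. Replicates 7 and 9, without WBC, had 28 of 35 and 9 of 14 DP cells. B-cell-like clusters held 11 DP cells (13.1%, 6.72 to 22.2) and 10 WBC (35.7%, 18.6 to 55.9). A melanoma-like cluster held 13 DP cells (15.5%, 8.51 to 25), 12 of them of replicate 6, and 0 WBC, which allows a share of up to 10.7%. The last cluster stayed unnamed, with 7 DP cells (8.33%, 3.42 to 16.4) and 8 WBC (28.6%, 13.2 to 48.7). It was the shallowest, at a median of 1.37 Mcounts, and mixed in kind. C1qb reached 1000 CPM in 6 of its DP cells and 3 of its WBC, which the macrophage-like shares leave out. Another 3 WBC held the neutrophil gene S100a8 at 1000 CPM. The last 2 had Flt3, of the dendritic cell list, at 1757 CPM and Ccr2 at 1405 CPM, with the class II gene H2-Ab1 at 11211 and 17616 CPM. The intervals cover counting error only, cells of 1 sample are not independent, and the sets of samples differ between the classes, so no test of these shares was made. By C1qb alone the sides were closer: it reached 1000 CPM in 58 DP cells (69.0%, 58.0 to 78.7) and 16 WBC (57.1%, 37.2 to 75.5). Of these 16 WBC, 10 were in the serous-cavity clusters, 3 in the unnamed cluster and 3 in a B-cell-like one. After thinning each cell to 1000000 counts it was 55 of 80 DP cells (68.8%) and 15 of 23 WBC (65.2%).

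**Figure D1:**
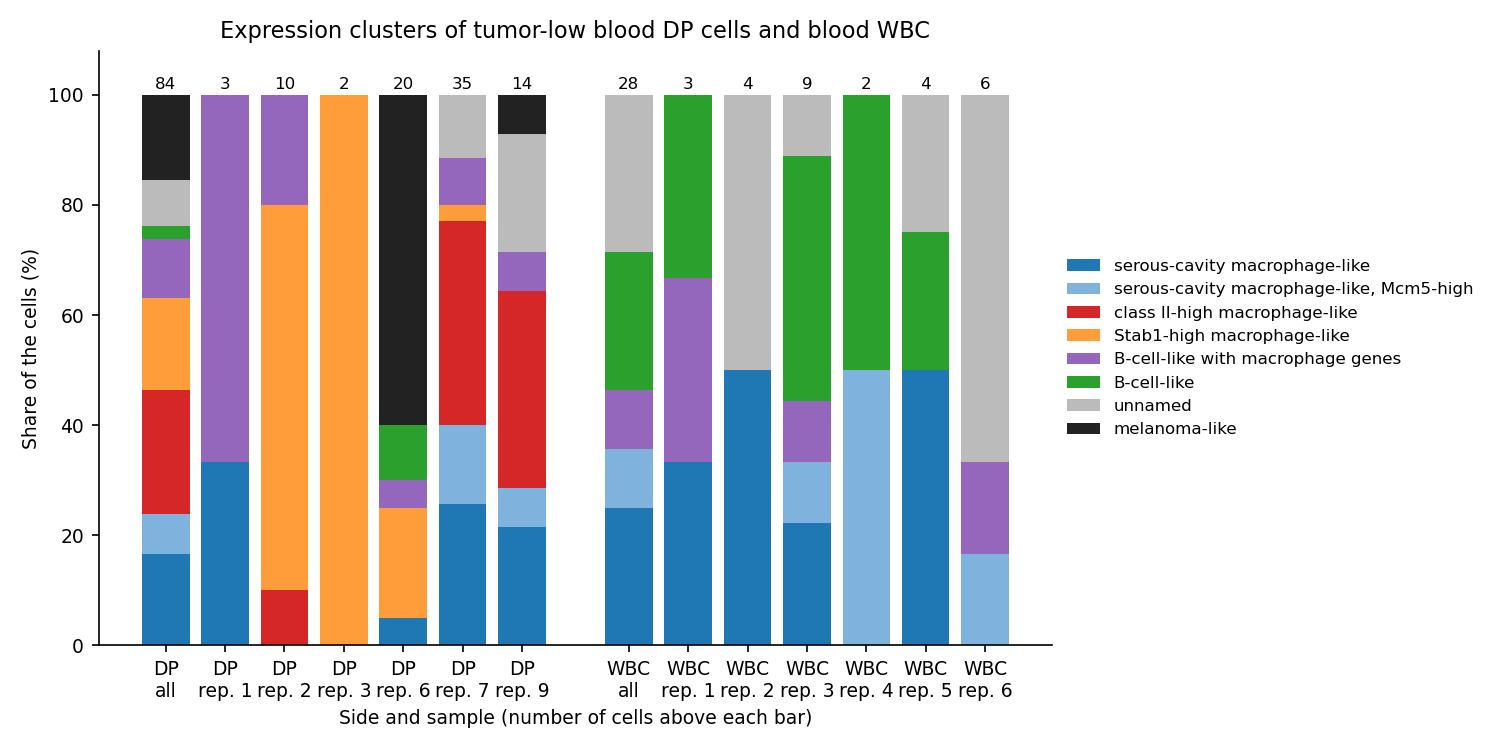
Share of cells (%, vertical axis) in each of 8 expression clusters, for tumor-low DP cells on the left and WBC on the right, in all samples and by replicate; the number of cells stands above each bar. The class II-high and Stab1-high macrophage-like clusters and the melanoma-like cluster appear in DP bars alone, and replicates 7 and 9 have no WBC.

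Serous-cavity macrophage-like cells were found on both sides. They made up 20 DP cells, 23.8% of the class (15.2 to 34.3), and 10 WBC (35.7%). Of the 20 DP cells, 14 came from replicate 7, 4 from replicate 9 and 1 each from replicates 1 and 6, while the 10 WBC came from all 6 samples, with 1 to 3 cells each. In these cells Alox15 ranged from 1344 to 15500 CPM in DP (median 7443) and from 2654 to 11927 CPM in WBC (median 6507). Prg4 had medians of 6402 CPM in DP and 5934 CPM in WBC, and C1qb, a chain of complement C1q, 3510 and 4662 CPM. The ranges of all 3 genes overlapped between the sides, and the clusters were formed on genes of this kind. A subset of 6 DP cells and 3 WBC formed a separate cluster with more Mcm5, a subunit of the replication helicase, at medians of 485 CPM in DP and 730 CPM in WBC. The naive WBC held such cells as well: Alox15 reached 1000 CPM in 26 of 84 DP cells (31.0%), 14 of 28 WBC (50%) and 6 of 21 naive WBC (28.6%), against 0 of 28 blood CTC, the class of circulating tumor cells (up to 10.7% allowed).

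A second kind of macrophage-like cell was rich in class II genes and held 19 DP cells and 0 WBC. Of the 19, 13 came from replicate 7, 5 from replicate 9 and 1 from replicate 2, and replicates 7 and 9 had no WBC to compare. Cd74, the class II invariant chain, ranged from 747 to 26300 CPM (median 3698), and Ccr2, the receptor of the monocyte chemokine Ccl2, from 0 to 2411 CPM (median 458). Retnla, a secreted protein of alternatively activated macrophages, ranged from 0.0644 to 25335 CPM (median 641). Alox15 had a median of 3.45 CPM there and Adgre1, which encodes the macrophage antigen F4/80, 6.93 CPM. C1qb, at a median of 4395 CPM, and Lyz2, at 26229 CPM, were as abundant as in the serous-cavity macrophage-like DP cells, whose Lyz2 median was 20325 CPM.

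Another kind, with 14 DP cells and 0 WBC, was marked by the scavenger receptor Stab1. It was found in 4 samples, with 7 cells in replicate 2, 2 in replicate 3, 4 in replicate 6 and 1 in replicate 7. Stab1 ranged from 408 to 5140 CPM (median 1404), Mrc1, the macrophage mannose receptor, from 176 to 9483 CPM (median 1332) and C1qb from 975 to 4543 CPM (median 3514). Further genes of these cells were Spp1, which encodes osteopontin (median 4729 CPM), Hmox1, which encodes the haem-degrading enzyme (1373 CPM), and the coagulation factor gene F13a1 (876 CPM). Alox15 had a median of 0 CPM. Melanocyte genes were seen in these cells too. Of the 16 on that list, 8 reached 10 CPM in at least 50% of the cells, among them the 4 rule genes. It was 9 in the melanoma-like cluster and 5 in the larger serous-cavity cluster. The rule genes summed to a median of 692 CPM (10.7 to 4942). Sox10, of the same list, reached 10 CPM in 5 of the 14 cells, and the leukocyte gene Ptprc in 9. The source of the melanocyte transcripts was not tested. Stab1 itself was not limited to DP: it reached 100 CPM in 24 of 84 DP cells, 5 of 28 WBC (up to 1057 CPM) and 1 of 21 naive WBC. The Stab1-high cells were shallow, with a median of 1.82 Mcounts against 5.22 Mcounts in the larger serous-cavity cluster and 6.7 Mcounts in the class II-high cluster, and the part of depth in their separation was not tested.

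B-cell genes were found with and without macrophage genes. The B-cell-like cluster with little C1qb held 2 DP cells, both of replicate 6, and 7 WBC. Cd79a, a signalling chain of the B-cell receptor, had 2877 and 2935 CPM in the 2 DP cells and ranged from 3221 to 5485 CPM in the WBC (median 3982). C1qb was at 0 CPM in both DP cells and reached at most 10.7 CPM in these WBC. A larger cluster of 9 DP cells and 3 WBC carried genes of both kinds: Cd79a ranged from 181 to 2906 CPM in DP (median 2037) with a median of 865 CPM in WBC, and Lyz2 had medians of 20080 and 8544 CPM. C1qb was at only 2.93 and 0.696 CPM in 2 DP cells of this cluster. Counted cell by cell, C1qb and Cd79a both reached 100 CPM in 9 of 84 DP cells (10.7%, 5.02 to 19.4), 3 of 28 WBC (10.7%, 2.27 to 28.2), 0 of 21 naive WBC (up to 14.3% allowed) and 0 of 28 CTC. The 9 DP cells of this count are not the 9 of the cluster. They leave out the cells with C1qb at 2.93 and 0.696 CPM and take in class II-high cells with Cd79a at 375 and 149 CPM. They came from replicates 1, 2, 6, 7 and 9 and the 3 WBC from replicates 1, 3 and 6. Both B-cell-like DP cells of replicate 6 also held some Lyz2, at 150 and 292 CPM, against 3.5 to 12379 CPM in the 7 WBC. Whether a well held 1 cell or a pair was not tested.

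Several neutrophil, T-cell, natural killer, platelet and red-cell genes were seen in few or no tumor-low DP cells, but Pf4 and Padi4 were not rare. The neutrophil genes S100a8 and S100a9, which encode calprotectin, both reached 1000 CPM in 0 of 84 DP cells, which allows a share of up to 3.57%. They did so in 3 of 28 WBC (10.7%, 2.27 to 28.2), 2 of replicate 2 and 1 of replicate 5, and in 7 of 21 naive WBC (33.3%, 14.6 to 57.0). All 3 of these WBC held fewer than 1000000 counts, and 0 of the 23 WBC that could be thinned to that depth passed. Ly6c2, a surface antigen of classical monocytes, reached 100 CPM in 1 DP cell, 4 WBC and 3 naive WBC, unlike Ccr2 of the same list. The T-cell receptor gene Cd3e did so in 0 DP cells, 1 WBC and 0 naive WBC. The natural killer receptor gene Ncr1 did not reach 10 CPM in any of these cells. Ppbp, a platelet chemokine, reached 100 CPM in 2 DP cells, 0 WBC and 0 naive WBC, and the haemoglobin gene Hbb-bs reached 10 CPM in 1 DP cell and 0 cells of both WBC groups. Pf4, of the same platelet list as Ppbp, reached 100 CPM in 45 DP cells (53.6%), 16 WBC (57.1%) and 7 naive WBC (33.3%). Padi4, of the neutrophil list, was among the top genes of both serous-cavity clusters, at 10 CPM in 9 of 9 cells of the Mcm5-rich one. It reached 10 CPM in 12 of the 19 class II-high DP cells. Among all WBC, a set unlike that cluster, it did so in 17 of 28.

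Over all samples, Ccr2 and Retnla were seen in a larger share of tumor-low DP cells than of WBC, mostly in samples without WBC. Ccr2 reached 100 CPM in 23 DP cells (27.4%, 18.2 to 38.2), 2 WBC (7.14%, 0.877 to 23.5) and 0 naive WBC. Of these DP cells, 13 came from replicate 7 and 4 from replicate 9, which had no WBC. In replicates 1, 2, 3 and 6 it was 2 of 3, 1 of 10, 0 of 2 and 3 of 20 DP cells. The WBC of these replicates had it in 0 of 3, 0 of 4, 0 of 9 and 2 of 6 cells, so replicate 6 went the other way. Retnla did so in 20 DP cells (23.8%), 1 WBC (3.57%) and 0 naive WBC, and 17 of these 20 were in replicates 7 and 9, with 12 and 5 cells. The 3 others came from replicates 1 and 2, with 1 and 2 cells. Thinning each cell to 1000000 counts left 23 cells with Ccr2 and 20 with Retnla among the 80 DP cells that were deep enough.

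**Figure D2:**
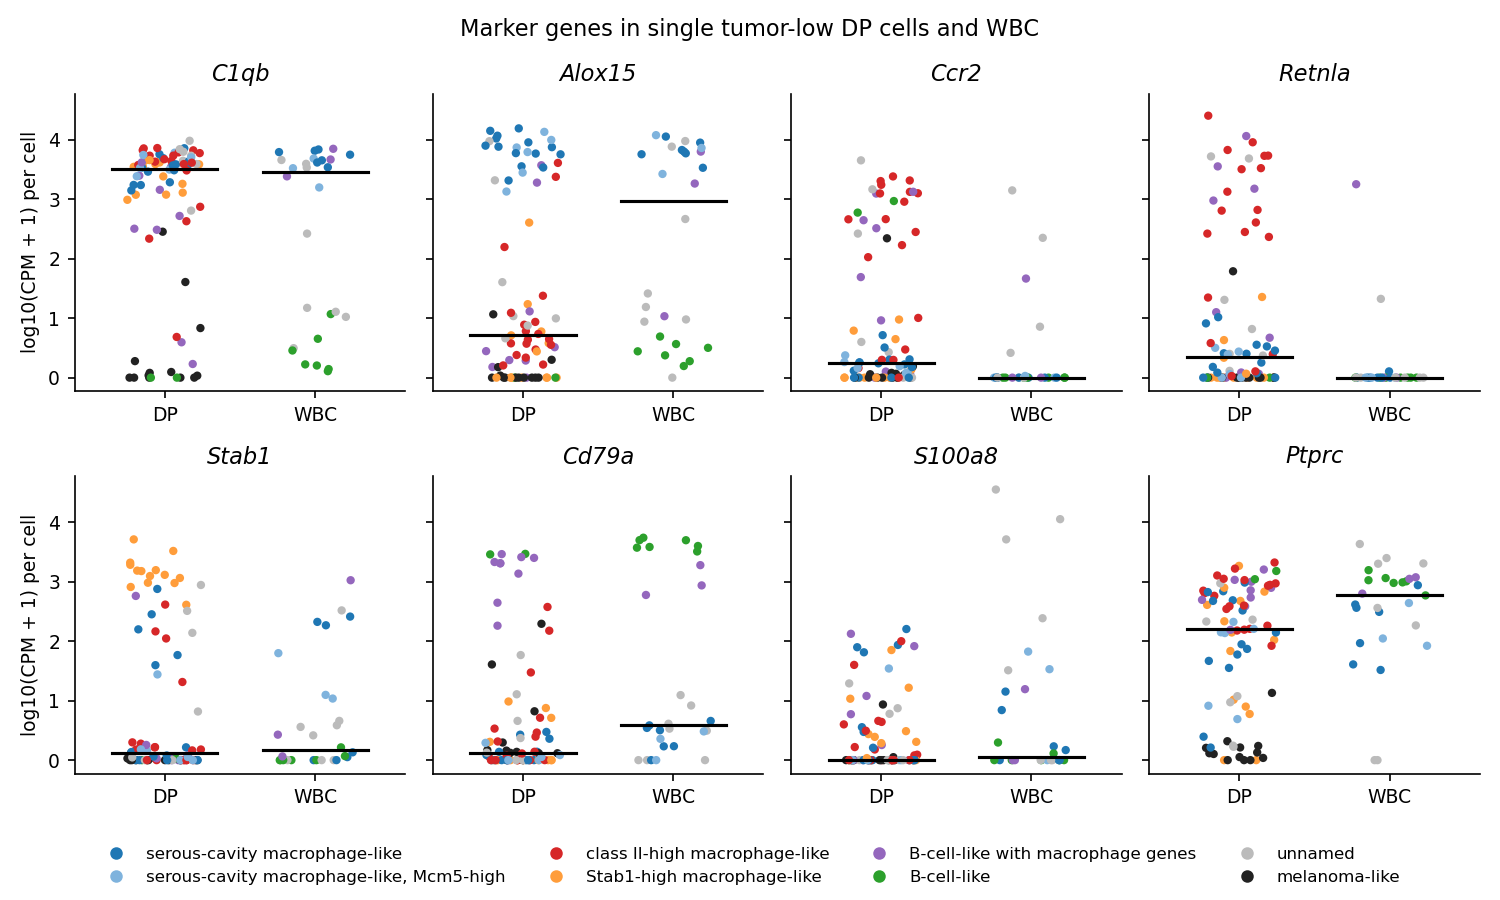
CPM per cell on a log10(CPM + 1) scale (vertical axis) for 8 marker genes, with tumor-low DP cells left of WBC in each panel; points are cells coloured by cluster and bars are medians over cells. C1qb is high in most cells of both classes, Ccr2, Retnla and Stab1 are high in groups of DP cells and in a few WBC, and the highest S100a8 values, up to 35420 CPM, are in WBC.

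Not all tumor-low DP cells were leukocytes by their markers. The melanoma-like cluster held 12 cells of replicate 6 and 1 of replicate 9, and of these only the 12 carried Sox10 above 100 CPM. These 12 made up 14.3% of the class (7.61 to 23.6) and came from 1 sample. Their median of Ptprc, which encodes the leukocyte antigen CD45, was 0.287 CPM (0 to 12.5), and their medians of C1qb and Lyz2 were 0.0844 and 0.158 CPM, with highest values of 283 and 1613 CPM. Sox10, a transcription factor of the melanocyte lineage that the rule did not use, ranged from 142 to 593 CPM (median 365), against a median of 266 CPM in blood CTC. The pigment enzyme gene Tyr had a median of 116 CPM, against 659 CPM in CTC. The cell of replicate 9, with 49.2 Mcounts, went against the name of its cluster: Sox10 was at 0.183 CPM, Tyr at 1.71 CPM and the melanocyte list of 16 genes summed to 45.0 CPM. In it 5 of 7 genes of the fibroblast list reached 100 CPM, with a sum of 17481 CPM, while that list summed to at most 37.9 CPM in the 12 cells. Col3a1, a fibrillar collagen, had 5253 CPM and Ptprc 0.346 CPM in this cell, which is no member of any pair. Over all cells, Sox10 reached 10 CPM in 17 DP cells (20.2%), 3 WBC (10.7%) and 28 of 28 CTC, and after thinning to 1000000 counts in 14 of 80 DP cells and 0 of 23 WBC. The general monocyte and macrophage list of 15 genes summed to a median of 8.08 CPM in the 12 cells, 36921 CPM in the 71 DP cells of other clusters, 24046 CPM in WBC and 8.65 CPM in CTC. The melanoma-like cells are 12 of the 20 DP cells that replicate 6 brings to the paired sums.

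The values that chose the cells are given as a description. The 4 genes summed to a median of 112 CPM in tumor-low DP cells (2.47 to 4942), 25787 CPM in tumor-high DP cells (5023 to 68445), 23210 CPM in blood CTC, 86.1 CPM in WBC (7.77 to 2083) and 48.3 CPM in naive WBC (7.19 to 470). Just inside the limit lay cells with 3385, 4066, 4077, 4322 and 4942 CPM, and just outside it cells with 5023, 5627, 5828, 6228 and 6770 CPM, so no gap marked the limit. At 100 CPM or more were 46 of 84 DP cells and 12 of 28 WBC, and at 1000 CPM or more 16 DP cells and 1 WBC. In the paired sums DP values of all 4 genes lay above the WBC values of the same sample. Pmel, the scaffold of melanosome fibrils, had 38.1, 100, 49.8 and 128 CPM in the DP sums of replicates 1, 2, 3 and 6, against 19.8, 40.5, 16 and 14.6 CPM in the WBC sums.

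**Figure D3:**
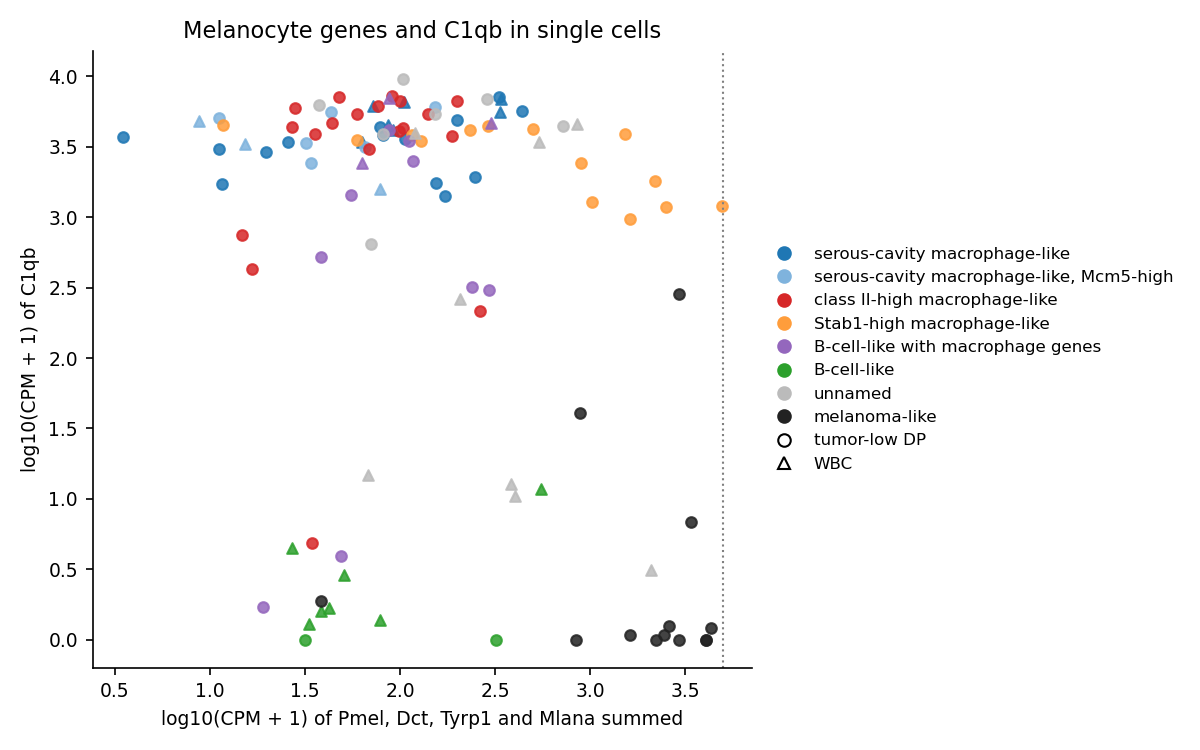
Each point is a cell, with the summed CPM of Pmel, Dct, Tyrp1 and Mlana (horizontal axis) and C1qb (vertical axis), both as log10(CPM + 1); circles are tumor-low DP cells, triangles WBC, colours are clusters, and the dotted line is the limit of 5000 CPM. Most cells with C1qb above 1000 CPM lie below 1000 CPM of the melanocyte genes, while most of the 13 cells of the melanoma-like cluster lie near 0 on the C1qb axis.

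With all cells, the shares with the 3 markers of the class differed between the sides by less than the spread between samples. At 10 CPM, C1qb was detected in 100%, 100%, 100% and 40.0% of DP cells in replicates 1, 2, 3 and 6, against 66.7%, 100%, 55.6% and 83.3% of WBC. The mean was 85% ± 30.0 in DP and 76.4% ± 19.4 in WBC (SD, n = 4 pairs), a difference of 8.61 points (exact two-sided sign-flip permutation p = 0.75). Lyz2 averaged 87.5% ± 25 in DP and 94.4% ± 11.1 in WBC (-6.94 points, exact p = 1.0), and Itgam 82.5% ± 28.7 and 75.7% ± 6.94 (6.81 points, exact p = 0.75). With 4 pairs the smallest possible p is 0.125, so the design cannot reach the threshold. Replicate 6, with its melanoma-like cells, was the low DP sample in all 3. Without those cells, a choice made after seeing the data, Itgam averaged 94.4% ± 6.57 in DP and 75.7% ± 6.94 in WBC, a difference of 18.7 points (4 of 4 pairs, exact p = 0.125, the smallest possible). C1qb then differed by 17.4 points (exact p = 0.5) and Lyz2 by 5.56 points (exact p = 1.0). Itgam reached 10 CPM in 1 of the 13 cells of the melanoma-like cluster, and C1qb and Lyz2 in 2 each. Leaving such cells out of the DP side alone raises the DP shares, so no result is read from these differences.

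The paired comparison of summed counts called few genes, and most of them were lower in tumor-low DP. With the sample as a block, the quasi-likelihood test of edgeR (p-values adjusted by Benjamini-Hochberg) called 12 of 11182 genes (0.107%), 2 higher (0.0179%) and 10 lower (0.0894%) in DP, and 300 genes had an unadjusted p under 0.05. Over all genes the log2 difference had a median of 0.50, and each difference below is to be read against that general shift to higher values in DP. The fit kept no spread of its own for single genes, and its p-values follow 1 trend over all genes, so a gene can pass with pairs that disagree. DESeq2, in the same design, called 783 genes (7.0%), 573 higher (5.12%) and 210 lower (1.88%), while edgeR called 0 genes without the sample block (365 at an unadjusted p under 0.05) and 2 with the size factors of DESeq2. Of the 12 genes called by edgeR, DESeq2 called 9 in this design and did not call Cd5l, Prg4 and Fn1. In sums of unlike cells, fewer cells of a type and less RNA per cell cannot be told apart, and the pairs held serous-cavity macrophage-like cells in 1 of 3, 0 of 10, 0 of 2 and 1 of 20 DP cells, against 1 of 3, 2 of 4, 3 of 9 and 1 of 6 WBC.

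Of the 10 genes lower in DP, 5 were lower in all 4 pairs, as were 4.07% of all genes tested, and 3 of the 5 are on the serous-cavity macrophage list. Alox15 (GRCm38 chr11:70344152-70352031) had 1422, 1140, 0 and 137 CPM in the DP sums of replicates 1, 2, 3 and 6, against 3605, 5136, 1609 and 9885 CPM in the WBC sums. Every DP value lay below every WBC value. On the log2 scale it fell by 4.59 ± 0.74 (SE, adjusted p = 2.29e-06 by edgeR). Each ± beside an edgeR p-value, here and below, is an SE worked back from the test statistic. In the 4-pair fit it leaves out how far the pairs of a single gene differ. On log2(CPM + 1) the pair differences of Alox15 ran from -10.65 to -1.34 (SD 4.27). Few cells carried these sums: Alox15 reached 1000 CPM in 1 of 3, 1 of 10, 0 of 2 and 1 of 20 DP cells. The WBC had it in 2 of 3, 2 of 4, 5 of 9 and 2 of 6 cells. Raw counts were summed, so deep cells weighed more. The 2 WBC of replicate 6 had 29.5 Mcounts with 11927 CPM and 1.25 Mcounts with 9488 CPM. Alox15 kept its call with cells weighted equally in limma. Saa3 (chr7:46711998-46715700), an acute-phase serum amyloid, had 6153, 1289, 0.524 and 263 CPM in DP, against 6275, 10085, 4795 and 10581 CPM in WBC. Its replicate 1 values were close and the other pairs were apart (-4.31 ± 0.63, adjusted p = 4.51e-08 by edgeR). Prg4 (chr1:150449412-150466165) had 1288, 1032, 0 and 150 CPM in DP, against 2365, 9182, 1967 and 3157 CPM in WBC. The groups did not overlap (-4.07 ± 0.72, adjusted p = 3.2e-05 by edgeR).

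The 2 others are known from macrophages more widely. Serpinb2 (chr1:107511423-107535478), an inhibitor of plasminogen activators, had 1495, 821, 0 and 15.8 CPM in DP, against 2716, 3402, 522 and 4791 CPM in WBC. The groups overlapped, since the lowest WBC value lay below the replicate 1 and 2 DP values (-5.38 ± 1.02, adjusted p = 0.00019 by edgeR). Cd5l (chr3:87357881-87371073), a secreted scavenger protein of tissue macrophages, had 521, 810, 0 and 68.1 CPM in DP, against 1132, 1936, 712 and 4239 CPM in WBC. Replicate 2 of DP lay above replicate 3 of WBC, and the difference was -4.16 ± 0.98 (adjusted p = 0.0256 by edgeR).

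The other 5 lower genes passed although not every pair went that way. Slpi, an inhibitor of leukocyte proteases, had 0, 6787, 0 and 41.3 CPM in DP, against 731, 1005, 422 and 18938 CPM in WBC, and was higher in DP in replicate 2 (-10.29 ± 1.03, adjusted p = 1.81e-19 by edgeR). Fn1, which encodes fibronectin, had 6034, 5566, 852 and 228 CPM in DP, against 5132, 18669, 3262 and 8090 CPM in WBC (-2.04 ± 0.48, adjusted p = 0.0256 by edgeR). Replicate 1 went the other way for Fn1. Csf3r, the granulocyte growth factor receptor, reached 3382 CPM in the replicate 2 WBC sum, against 29.6 CPM in the DP sum of that sample, and no other sum passed 26.1 CPM (adjusted p = 0.0055 by edgeR). Cxcl1, a neutrophil-attracting chemokine, reached 3197 CPM in the replicate 1 WBC sum, against 25.3 CPM in its DP sum (adjusted p = 0.000188 by edgeR). Il1r2, a decoy receptor for interleukin-1, reached 1205 CPM in the replicate 2 WBC sum, against 0.1 CPM in its DP sum (adjusted p = 0.0256 by edgeR). In each of these last 3 genes 1 WBC sum lay far above the others.

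Higher in tumor-low DP were Retnla and Ndrg1. Retnla (chr16:48842551-48844461) had 5018, 1379, 0 and 4.2 CPM in DP, against 0, 2.67, 29.3 and 0 CPM in WBC. It was higher in DP in 3 of 4 pairs, mainly in replicates 1 and 2, by 9.35 ± 1.58 on the log2 scale (adjusted p = 9.29e-06 by edgeR). Ndrg1 (chr15:66929318-66969640), a gene induced by hypoxia and stress, had 0.622, 12.9, 1158 and 245 CPM in DP, against 0.199, 0, 0.0412 and 0.652 CPM in WBC. It was higher in all 4 pairs (8.85 ± 2.18, adjusted p = 0.0452 by edgeR), and 7.15% of all genes tested were. The replicate 3 sum held 2 Stab1-high cells, with 11 and 1332 CPM, and no melanoma-like cell. In single cells Ndrg1 had medians of 135 CPM in the 12 melanoma-like cells of replicate 6 and 5.9 CPM in the Stab1-high cells. CTC had a median of 28.2 CPM, WBC reached at most 10.2 CPM and naive WBC 1666 CPM. Il1rn, the interleukin-1 receptor antagonist, came next, with 422, 82.0, 398 and 1.05 CPM in DP, against 0, 0, 0 and 97.8 CPM in WBC (13.97 ± 3.48, adjusted p = 0.0522 by edgeR). Gys1, the muscle form of glycogen synthase, had 66.3, 8.7, 511 and 224 CPM in DP, against 0.166, 0.822, 0.66 and 1.03 CPM in WBC, higher in 4 of 4 pairs (7.70 ± 2.21, adjusted p = 0.216 by edgeR). Axin1, a scaffold of the Wnt pathway, had 8.31, 58.1, 289 and 16.1 CPM in DP, against 0, 0, 0.261 and 0 CPM in WBC (11.41 ± 3.27, adjusted p = 0.216 by edgeR). The last 3 genes did not pass the threshold.

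**Figure D4:**
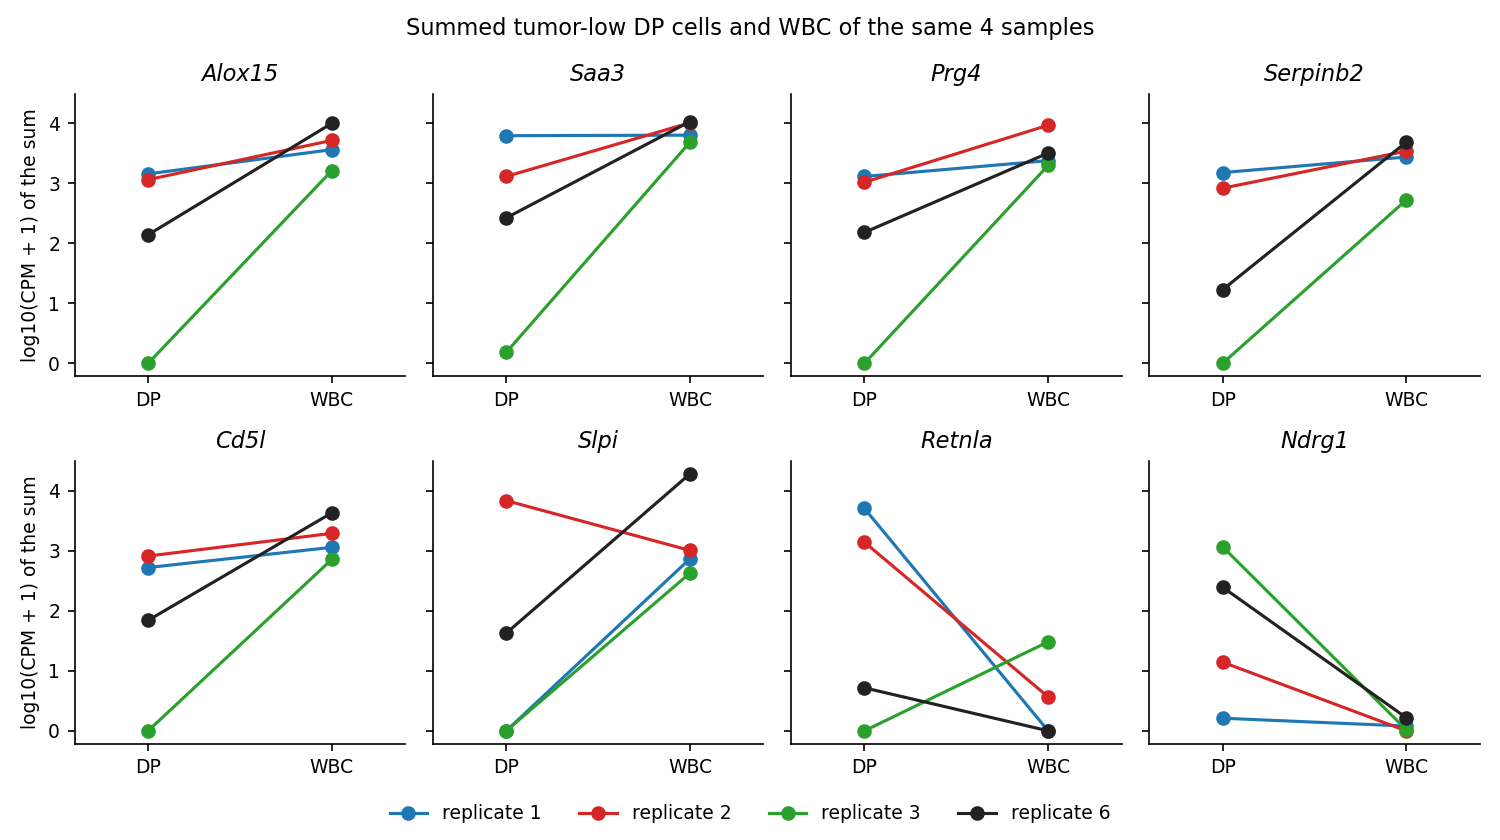
Scaled CPM of the summed cells as log10(CPM + 1) (vertical axis) for 8 called genes, with the tumor-low DP sum left of the WBC sum of the same sample; each line is 1 of the 4 pairs. Alox15, Saa3, Prg4, Serpinb2 and Cd5l are lower in DP in every pair, Slpi goes the other way in replicate 2 (6787 CPM in DP, 1005 CPM in WBC), and Retnla and Ndrg1 are higher in DP in 3 and 4 pairs.

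edgeR called none of the 12 genes once the melanoma-like cells were left out. Without these cells, in a comparison chosen after seeing the data, edgeR called 0 of 10676 genes (251 at an unadjusted p under 0.05), and DESeq2 called 801 (7.5%), 517 higher (4.84%) and 284 lower (2.66%). Of the 12 genes DESeq2 then called 5. It did not call the other 7, which were Alox15, Saa3, Prg4, Serpinb2, Cd5l, Fn1 and Ndrg1. The differences had the same signs without them: Alox15 was -3.48, Saa3 -3.18, Prg4 -3.06, Serpinb2 -4.24, Retnla 8.61 and Ndrg1 5.16 on the log2 scale. With all 6 DP sums and all 6 WBC sums and no pairing, also chosen after seeing the data, edgeR called 0 of 9401 genes (535 at an unadjusted p under 0.05) and DESeq2 119 (1.27%), 102 higher (1.08%) and 17 lower (0.181%). Of the 12 genes, 11 were tested in these sums, and DESeq2 called 1 of them, Ndrg1. In these sums Alox15 averaged 1401 ± 1261 CPM in DP and 5007 ± 2735 CPM in WBC, and Prg4 1073 ± 867 and 4113 ± 3496 CPM (SD, n = 6 each). Retnla averaged 1344 ± 1899 CPM in DP and 5.14 ± 11.1 CPM in WBC, and Ccr2 268 ± 238 and 10.5 ± 24.9 CPM.

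By gene list, the serous-cavity macrophage list stood lowest among those with many members. All 12 of its tested members had negative differences, 3 of them called, at a median of -3.11. The median of all genes was 0.50, and 4557 of 11182 were negative. Without the melanoma-like cells 10 of the 12 were negative and none was called, at a median of -2.27 against 0.27 for all genes. Called members outside it were Fn1 among 12 classical monocyte genes (median -2.44), Cd5l among 15 tissue macrophage genes (median -0.11), Csf3r among 4 neutrophil genes (median -4.99) and Cxcl1 among 14 chemokine genes (median 1.4). The other 31 lists, apart from the melanocyte list, had no called member.

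General leukocyte genes were among the uncalled. Ptprc had 606, 624, 125 and 137 CPM in DP, against 961, 1141, 753 and 273 CPM in WBC, lower in 4 of 4 pairs (-1.26 ± 0.85, adjusted p = 1.0 by edgeR). The pan-leukocyte list had a median of -1.02 over 16 genes and the MHC class I list -1.70 over 11, with 10 of 11 negative, among them H2-K1, a classical class I heavy chain (-1.70 ± 0.62, adjusted p = 1.0 by edgeR). C1qb had 3025, 2331, 4147 and 255 CPM in DP, against 2070, 5825, 939 and 4537 CPM in WBC. It was higher in DP in 2 pairs and lower in 2 (-0.57 ± 0.64, adjusted p = 1.0 by edgeR). Lyz2 had 23271, 12727, 7671 and 2145 CPM in DP, against 13833, 67141, 9656 and 13868 CPM in WBC (-1.19 ± 0.33, adjusted p = 0.144 by edgeR). The general monocyte and macrophage list had a median of -0.75 over 15 genes.

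Antigen presentation and B-cell genes followed the single cells of each sample. Cd74 had 14847, 4398, 1166 and 2374 CPM in DP, against 15809, 8.63, 11759 and 1904 CPM in WBC. The pair of replicate 2, whose 4 WBC held no B-cell-like cell, stood apart from the others (0.32 ± 0.53, adjusted p = 1.0 by edgeR). Cd79a had 1199, 1255, 0 and 293 CPM in DP, against 2528, 1.03, 2839 and 188 CPM in WBC, with the same low WBC sum in replicate 2 and a DP sum of 0 in replicate 3, whose 2 DP cells were both Stab1-high. The MHC class II list had a median of 0.24 over 10 genes with those cells and 1.38 without the melanoma-like cells, and the B-cell list -0.64 and 0.55. Both medians were nearer to that of all genes (0.50 with the cells and 0.27 without) than the serous-cavity median was.

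Metabolic and stress genes had positive differences in DP that did not pass. Of all 11182 genes tested, 6625 had positive differences, at a median of 0.50. All 14 glycolysis genes did, at a median of 1.59, for example Aldoa (1.36 ± 0.58, adjusted p = 1.0 by edgeR), and the median was 0.79 without the melanoma-like cells. Of 11 heat shock genes 10 did, at a median of 1.6 (1.31 without those cells). Immediate-early genes had a median of -1.67 over 15 genes. Dusp1, a phosphatase of this list, had 1378, 670, 373 and 209 CPM in DP, against 2422, 12542, 836 and 2156 CPM in WBC (-2.38 ± 0.61, adjusted p = 0.0685 by edgeR). Cybb, the catalytic subunit of the phagocyte NADPH oxidase, was lower in 4 of 4 pairs (-2.94 ± 0.80, adjusted p = 0.127 by edgeR).

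Within the serous-cavity macrophage-like cells, edgeR called 0 of 6861 genes between the sides (174 at an unadjusted p under 0.05) and DESeq2 50 (0.729%), 26 higher (0.379%) and 24 lower (0.35%). This comparison was also chosen after seeing the data and is unpaired, with 4 DP sums and 6 WBC sums, some of a single cell. The clusters were formed on Alox15, Prg4, Serpinb2, Cd5l, Saa3 and like genes, so levels of those genes between the sides were set by the choice of cells and are not compared. Cd14, the lipopolysaccharide co-receptor, averaged 723 ± 277 CPM in DP and 2993 ± 2229 CPM in WBC (-2.05 ± 0.62, adjusted p = 1.0 by edgeR). Lyz2 averaged 21882 ± 2849 CPM in DP and 56797 ± 48096 CPM in WBC (-1.38 ± 0.49, adjusted p = 1.0 by edgeR). Over all genes the median was -0.14, and 3728 of 6861 were negative. All 7 tested MHC class II genes were negative, at a median of -8.02, and all 18 proliferation genes, at a median of -1.35, with none called. H2-Ab1, a class II chain, had 0 to 6.34 CPM in the DP sums and 0.895 to 16472 CPM in the WBC sums (-9.67 ± 2.60, adjusted p = 1.0 by edgeR), so the groups overlapped. The highest WBC sum was a single cell of replicate 1, with H2-Ab1 at 12103 CPM in that cell. The other serous-cavity macrophage-like WBC had at most 376 CPM. How far the class II differences rest on that cell was not tested. Ednrb, an endothelin receptor of the melanocyte lineage and a gene of these clusters, reached 100 CPM in 40 of 84 DP cells, 15 of 28 WBC, 6 of 21 naive WBC and 0 of 28 CTC.

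Limited to all macrophage-like cells, 2 pairs were left (replicates 2 and 3), and edgeR called 21 of 7768 genes (0.27%), 10 higher (0.129%) and 11 lower (0.142%) in DP. DESeq2 called 556 (7.16%), 367 higher (4.72%) and 189 lower (2.43%). The DP cells of these pairs lay in the class II-high and Stab1-high clusters and the WBC in the serous-cavity clusters. The genes that define those clusters are not results, and none is named.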

How the data were processed

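The authors deposited raw counts per gene and cell (21138 genes, 648 cells). Per the submitters' processing notes, Trim Galore, HISAT2, SAMtools and featureCounts were used with mm10, and BWA and Picard are also named. The sources used here do not give versions or the annotation. In the cells described 61.6% of nonzero values were even, which leaves unknown whether 1 fragment could count more than once, and PCR copies were not marked; intervals and floors of 3 counts cover counting error only. Gene positions come from GENCODE vM21 (GRCm38, the same assembly as mm10), which held 18884 symbols.

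Members, lists and tests were chosen with earlier results of these data known. Cells with a summed CPM under 5000 for the 4 rule genes were kept, all 28 WBC entered, and no cell was dropped for depth. Counts were summed per sample and class over at least 2 cells and tested with edgeR 4.0.16 (quasi-likelihood, TMM, filterByExpr; R 4.3.3), blocked by sample, and Benjamini-Hochberg adjustment at 0.05; DESeq2 1.42.0 and limma 3.58.1 gave alternatives. CPM of sums are TMM-scaled. The fit's estimate of how far single genes depart from the common trend of spread was nil. Samples pair the classes because both were sorted from the same samples; over 11182 genes the median correlation of deviations was -0.0225 within samples (-0.0989 to 0.0172, 4 pairs) and 0.00141 between samples.

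Cells were clustered by Ward linkage on log2(CPM + 1) of 2000 variable genes and 15 principal components into 8 clusters, named from 19 marker lists, using Python 3.11.15, NumPy 2.4.6, pandas 2.3.3 and SciPy 1.17.1. Another 18 lists held gene programmes; of 415 genes listed, 4 were not in the table. No doublet caller was run, and no pair of cells had identical counts. Genes were named by rule: up to 12 called protein-coding genes per direction, by size of difference, whose sums averaged at least 20 CPM and whose pairs shared 1 sign, the 5 smallest p where fewer than 5 passed, key genes, and up to 4 per list; the other called genes are named as well. The fits were tested on simulated data.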

Additional observations from a re-analysis of the deposited data

Results flagged for a closer look

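Among 60 groups of 4 sums or shares, 20 had 1 sample far from the rest. Chance gives this in about 1 of 20 groups only for normally spread values, which sums of few unlike cells need not be. Some groups were of genes named for their differences, so no excess over chance is read from the 20. In the DP sums these were Slpi (6787 CPM, next 41.3), Csf3r (29.6 CPM, next 0.563), Cxcl1 (25.3 CPM, next 0.00581), Il1r2 (9.55 CPM, next 0.1), S100a9 (0.963 CPM) and Ly6c2 (1.26 CPM).

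In the WBC sums they were Slpi (18938 CPM in replicate 6, next 1005), Csf3r (3382 CPM), Il1r2 (1205 CPM), Prg4 (9182 CPM), Lyz2 (67141 CPM), S100a8 (7059 CPM) and S100a9 (4008 CPM), the last 6 in replicate 2, and Cxcl1 (3197 CPM in replicate 1), Retnla (29.3 CPM in replicate 3) and Ccr2 (65.8 CPM in replicate 6). The replicate 2 WBC sum joined 4 cells, 2 with neutrophil genes and 2 serous-cavity macrophage-like.

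Among shares of cells, the DP cells of replicate 6 stood low for C1qb (40.0%), Lyz2 (50%) and Itgam (40.0%), and the WBC of replicate 3 stood low for Lyz2 (77.8%, 100% in the other 3 samples). In replicate 6, 12 of 20 DP cells were melanoma-like.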

How the results depend on the processing

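The 12 genes called became 2 with DESeq2 size factors in edgeR (of the 12, Slpi kept its call), 783 with DESeq2, 0 without the replicate block (365 at an unadjusted p under 0.05), 1 with a limit of 1000 CPM and 29 with cells weighted equally in limma. Chosen after seeing the data, they became 0 without the melanoma-like cells (DESeq2 801) and 0 over all samples (DESeq2 119). Leaving out 1 replicate gave 11 to 15. TMMwsp, no filter, sums of at least 1 or 3 cells, a limit of 10000 CPM, deep cells and thinning gave 9 to 15. Retnla lost its call without replicate 1, Ndrg1 without replicate 2, 3 or 6, and Serpinb2 and Cd5l without replicate 3 or 6. Csf3r lost it without replicate 1, 2 or 3, Cxcl1 without 1 or 6, Il1r2 without 1 or 2 and Fn1 without 2 or 6, while Alox15, Saa3, Prg4 and Slpi kept theirs without any 1 replicate. None of the 12 called genes changed sign in a setting that tested it. Cd79a, which was not called, was at -0.22 and became 1.00 without the melanoma-like cells. The 21 genes of macrophage-like cells became 556 with DESeq2, 35 without the block, 13 with sums of 1 cell, 1 with cells taken by markers, and, chosen later, 0 with DESeq2 size factors and 0 over all samples. The C1qb share became -2.64 points at 1 CPM (-3.33 to 25.9 with a replicate left out), Lyz2 7.08 at 100 CPM and 5.56 without melanoma-like cells (-16.7 to 7.41), and Itgam -1.94 at 100 CPM and -4.78 after thinning (-2.04 to 23.5). With 6 clusters, 62 DP cells were macrophage-like and 2 B-cell-like, in place of 53 and 11. The causes were not tested. Sums of at least 5 cells, and macrophage-like cells without replicate 2 or 3, left 1 pair and were not run. Low depth limits what 0 counts allow in naive WBC most.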
